A study of Homo sapiens with 4 samples.

Results

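CD38, its neighbour BST1 and TGM2 were followed in ATAC-seq peak lists of HL-60 cells, with every peak that overlapped a gene body or the 50 kb on either side of it taken as a member. CD38 and BST1 lie 39961 bp apart on chromosome 4 and were taken as 1 window (hg19 chr4:15654688-15904855, 250168 bp). The TGM2 window was hg19 chr20:36705787-36844980 (139194 bp). Overlapping peaks of the 4 lists were merged into regions, and 25 of the 78063 regions lay in the windows, 23 about CD38 and BST1 and 2 about TGM2. ATAC-seq uses the Tn5 transposase to cut accessible chromatin, so a peak marks a stretch where many cuts fell. HL-60 is an established human promyelocytic leukemia line that matures toward granulocytes under all-trans retinoic acid (ATRA). Treated cells were grown with ATRA at 1 µM over 4 days and control cells with its solvent, ethanol, with 2 libraries in each group and no genetic change named for either. Both groups came from this 1 line in bulk, so more cells with an open site and a more open site in each cell cannot be told apart.

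CD38 encodes a surface enzyme that cleaves NAD and makes cyclic ADP-ribose, and its rise on myeloid leukemia cells is a long-known retinoid response. BST1, also called CD157, is its paralog, an enzyme of the same family that is held on the membrane by a lipid anchor. TGM2 encodes tissue transglutaminase, an enzyme that cross-links proteins and is another long-known retinoid-induced gene. Retinoic acid receptors pair with retinoid X receptors and bind direct repeats of a short half-site, written DR5, DR2 or DR1 by the number of bases between the copies. A response element of this kind is known in the first intron of CD38.

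Read from the GRCh37 reference, whose coordinates are those of hg19, the sequences that carry the results come first, each as the plus strand from 5′ to 3′, with the named motif matches of either strand in capitals and single half-sites left in lower case. The CD38 intron 1 stretch, chr4:15780693-15780992, is shown because the peak here was wider and ranked higher in both ATRA libraries, and it was chosen after its values were seen. Its capitals mark the half-sites of a DR5 that differs from the searched letters at 1 position, and a GATA match (TGATAA). The TGM2 upstream stretch, chr20:36797305-36797604, is shown because both ATRA libraries and neither control library had a peak there, and its capitals mark a GATA match, an exact DR1 and a CEBP match.
CD38 intron 1: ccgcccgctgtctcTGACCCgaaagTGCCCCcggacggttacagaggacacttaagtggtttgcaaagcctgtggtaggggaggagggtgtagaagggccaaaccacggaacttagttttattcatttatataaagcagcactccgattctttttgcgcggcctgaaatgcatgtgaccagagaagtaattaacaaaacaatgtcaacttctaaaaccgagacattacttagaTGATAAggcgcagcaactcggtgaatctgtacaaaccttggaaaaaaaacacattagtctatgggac
TGM2 upstream: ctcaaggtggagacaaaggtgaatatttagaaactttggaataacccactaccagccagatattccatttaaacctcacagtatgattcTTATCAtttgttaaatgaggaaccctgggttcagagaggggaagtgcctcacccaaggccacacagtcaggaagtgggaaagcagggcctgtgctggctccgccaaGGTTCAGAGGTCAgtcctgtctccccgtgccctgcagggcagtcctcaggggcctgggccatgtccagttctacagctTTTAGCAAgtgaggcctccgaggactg

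The next sequences are the centres of a region within CD38 with a peak in both ATRA libraries and in neither control library, and of the single region with the opposite pattern, which was also chosen after its values were seen. They are CD38 intron 7 (chr4:15842868-15843167) and the control site beyond the end of CD38 (chr4:15869817-15870116). Capitals mark a RUNX match and an AP-1 match in CD38 intron 7, and an AP-1 and a GATA match in the control site.
CD38 intron 7: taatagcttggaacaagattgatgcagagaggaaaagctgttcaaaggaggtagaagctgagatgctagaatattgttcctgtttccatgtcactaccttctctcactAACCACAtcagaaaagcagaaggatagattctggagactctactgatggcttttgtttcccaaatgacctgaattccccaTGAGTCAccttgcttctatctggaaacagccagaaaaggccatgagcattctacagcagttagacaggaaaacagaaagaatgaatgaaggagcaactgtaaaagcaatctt
Control site: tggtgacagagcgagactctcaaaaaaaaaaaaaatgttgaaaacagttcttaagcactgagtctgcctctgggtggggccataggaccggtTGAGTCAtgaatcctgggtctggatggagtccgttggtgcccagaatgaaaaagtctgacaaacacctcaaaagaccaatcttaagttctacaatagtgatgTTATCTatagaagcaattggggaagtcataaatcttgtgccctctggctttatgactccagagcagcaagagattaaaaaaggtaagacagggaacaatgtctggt

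The lists held 43494 and 63541 peaks for ATRA replicates 1 and 2, and 42081 and 45903 for control replicates 1 and 2. ATRA replicate 2 stood apart, with a median peak width of 416 bp against 291 to 328 bp and 31.6 Mb covered against 16.3 to 17.5 Mb, so the window totals and the main score differences are given with and without it, while counts of genes and shared regions include it. The lists hold no read counts, so the depth was unknown. A peak's score was used as its percentile within its own list, from 0 for the lowest score to 100 for the highest. Among markers of myeloid cells, SPI1 and PTPRC had a peak within 500 bp of the start site in all 4 libraries, CEBPA in 3, PRTN3 in 1, and MPO and ELANE in 0. ALB and CD3E, markers of other lineages, had one in 0 libraries. With 2 libraries against 2, the exact two-sided permutation test has 6 assignments and cannot give a p below 0.333, so groups are described by whether their values overlapped, beside the share of all regions or genes that had the same pattern. The study's text calls the libraries independent replicates, and a p measures only the spread between these 4.

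Both ATRA libraries had more peaks about CD38 and BST1 than either control library, and the only peaks about TGM2 were in the ATRA libraries. The CD38 and BST1 window held 19 and 21 peaks after ATRA and 15 and 13 in control cells. The means were 20.00 ± 1.41 and 14 ± 1.41 peaks (SD, n = 2 each, exact permutation p = 0.333). The peaks covered 8076 and 12860 bp after ATRA and 6010 and 5508 bp in control cells, a difference in means of 4709 bp. Without ATRA replicate 2 the differences were 5.000 peaks and 2317 bp. As a share of each list the peaks overlapped between groups, at 0.0437% and 0.0330% after ATRA against 0.0356% and 0.0283%. The covered lengths did not, at 0.0461% and 0.0407% of each list's total against 0.0352% and 0.0337%. When every list was limited to its 42081 highest-scoring peaks, the counts were 19 and 14 after ATRA and 15 and 11 in control cells, so the groups then overlapped, while the covered lengths of 8076 and 9657 bp stayed above 6010 and 5191 bp.

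**Figure D1:**
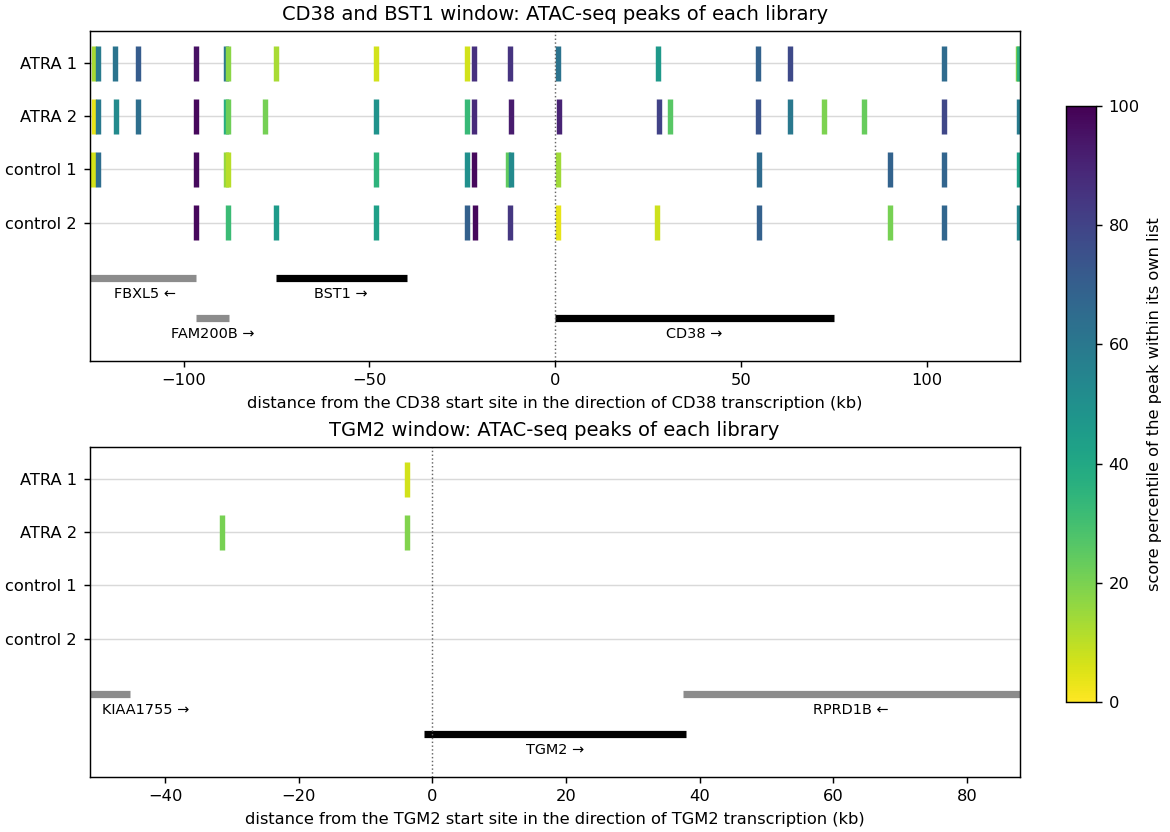
Peaks of each library (rows) in the CD38 and BST1 window (upper panel) and in the TGM2 window (lower panel) against the distance from the CD38 or TGM2 start site in kb; each tick is the centre of a peak, drawn at a fixed width and coloured by its score percentile, and bars below are genes with arrows for their direction. The CD38 and BST1 window held 19, 21, 15 and 13 peaks from top to bottom, and the TGM2 window 1, 2, 0 and 0.

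Taken gene by gene, CD38 had 11 and 13 peaks after ATRA against 10 and 10, and 4250 and 7628 bp covered against 3618 and 4335 bp. The covered lengths of CD38 overlapped between the groups (exact permutation p = 0.667, n = 2 each). BST1 had 13 and 13 peaks against 11 and 8, and 6123 and 8637 bp against 4661 and 4105 bp, with no overlap in either measure (exact permutation p = 0.333). As a share of each list, however, the peaks of both genes overlapped between groups. CD38 had 0.0253% and 0.0205% after ATRA and 0.0238% and 0.0218% in control cells. BST1 had 0.0299% and 0.0205% after ATRA and 0.0261% and 0.0174% in control cells. Part of the BST1 value came from peaks in FBXL5 and FAM200B inside its window. The margins of CD38 and BST1 also overlap, so some peaks counted for both genes. These were in BST1 intron 8, between the genes and in CD38 intron 1 near its start site. TGM2 had 1 and 2 peaks covering 243 and 729 bp after ATRA, and 0 peaks in both control libraries. Across 20136 protein-coding genes with the same margin, both ATRA libraries lay above both control libraries in covered length for 44.6% and below them for 1.14%, and in the number of peaks for 22.2% and 2.92%. The pattern of BST1 and TGM2 in covered length was thus common among all genes.

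**Figure D2:**
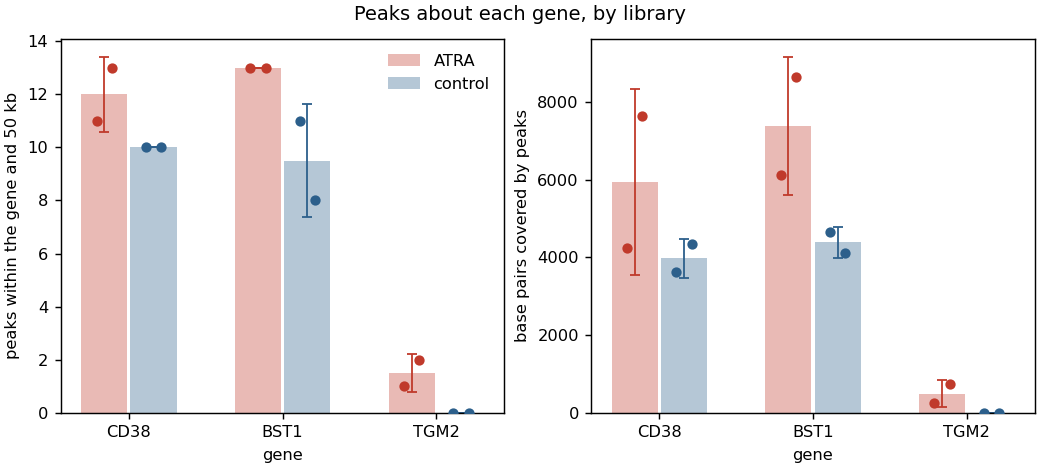
Number of peaks (left) and base pairs covered by peaks (right) within each gene and 50 kb on either side; bars are means, error bars the SD, and points the 2 libraries of each group. The covered lengths of the groups overlapped for CD38, with 4250 bp in ATRA replicate 1 against 4335 bp in control replicate 2, and did not for BST1 and TGM2. The margins of CD38 and BST1 overlap, so some peaks count for both.

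Of the 23 regions about CD38 and BST1, 10 had a peak in all 4 libraries (43.5%, against 30.3% of all regions). Both ATRA libraries and neither control library had a peak in 3 regions (13%, against 8.94% of all regions), and both control libraries and neither ATRA library in 1 (4.35%, against 3.37%). A further 4 regions had a peak in both ATRA libraries and 1 control library (17.4%, against 8.95% of all regions), and 1, at the BST1 start site, had one in ATRA replicate 1 and control replicate 2. The last 4 regions were seen in 1 library (17.4%, against 33.4% of all regions), and all 4 were peaks of ATRA replicate 2, as were 57.2% of all regions seen in 1 library. The TGM2 window held 1 region of both ATRA libraries and 1 of ATRA replicate 2 alone. Counted by base, 14837 bp of the CD38 and BST1 window lay under any peak, of which 14.1% was covered in both ATRA and no control library and 3.96% in both control and no ATRA library, against 9.30% and 2.56% over the whole genome.

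The start site of CD38 itself lay under no peak in any library, and the nearest peak of each began in intron 1, 553 to 712 bp downstream. This region (chr4:15780504-15781335) was present in all 4 libraries with unequal peaks. Its peak was 430 and 832 bp wide after ATRA and 229 and 175 bp wide in control cells. The score percentile was 61.9 and 90.3 after ATRA and 14.3 and 3.55 in control cells. Both ATRA values thus lay above both control values, by 67.1 percentile points in the mean (76.1 ± 20.1 against 8.95 ± 7.63, SD, n = 2 each, exact permutation p = 0.333). Widths ranked within each list gave the same order, with percentiles of 71.0 and 89.6 against 16.7 and 7.29. Without ATRA replicate 2 the score difference was 52.9 points. Of the 23653 regions present in all 4 libraries, 29.2% had both ATRA score percentiles above both control ones, and 49 (0.207%) had a difference in means at least as large as the one in CD38 intron 1, a rank looked up after its value was seen. With each list limited to 42081 peaks, control replicate 2 had no peak there.

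Control peaks in CD38 intron 1 ended earlier than ATRA peaks. All 4 libraries covered the stretch from 712 to 826 bp after the start site, and both ATRA and no control library covered the 155 bp from 887 to 1041 bp (chr4:15780838-15780992), which end the sequence printed above. The DR5 with 1 mismatch, GGGGCActttcGGGTCA on the minus strand (chr4:15780707-15780723), lay in the common stretch, 764 bp after the start site. With up to 1 mismatch allowed, a choice made after seeing the data, a DR5 was found in the full length of 3 of the 25 regions of both windows (12.0%) and in 2.81% of all regions. At the same setting a DR1 was found in 3 (12.0% against 3.12%) and a DR2 in 1 (4.00% against 4.34%). The other DR5 matches were AGTTCAcagccAGCTCA in the region at -23.8 kb from the CD38 start site and AGGTCActgagAGTCCA in the TGM2 region of ATRA replicate 2 alone. An exact DR5 was found in 0 of the 25 regions and in 0.170% of all regions, again in full length. No exact DR5 lay elsewhere in either window.

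**Figure D3:**
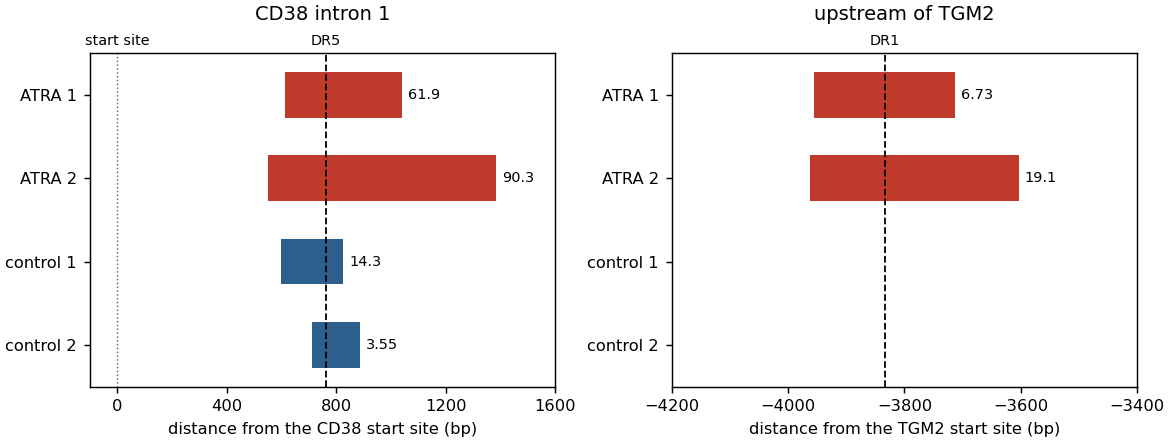
Peaks at the first intron of CD38 (left) and upstream of TGM2 (right) against the distance from the start site in bp; bars run from peak start to peak end in red for ATRA and blue for control libraries, numbers are score percentiles, and dashed lines mark a DR5 with 1 mismatch and an exact DR1. All 4 libraries covered the DR5, with percentiles of 61.9 and 90.3 after ATRA against 14.3 and 3.55, and the ATRA peaks alone covered the DR1.

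Further into CD38, a region of intron 1 at 27.8 kb (chr4:15807301-15808229) was 413 and 920 bp wide after ATRA, at score percentiles of 46.3 and 80.2. Control replicate 1 had no peak there and control replicate 2 had one of 142 bp at percentile 7.64. The region of intron 7 at 63.1 kb (chr4:15842816-15843220), whose sequence is printed above, had peaks of 343 and 392 bp after ATRA at percentiles of 78.0 and 60.1, and none in control cells. It kept both ATRA peaks when the lists were limited to 42081, at percentiles of 77.2 and 39.7. Intron 3, in contrast, held a region at 54.6 kb (chr4:15834312-15834874) in all 4 libraries, with percentiles of 69.1 and 74.1 after ATRA and 65.4 and 69.5 in control cells, which overlapped. The remaining peaks in the CD38 gene, in intron 1 at 31.0 kb and in exon 8 at 72.3 kb, were those of ATRA replicate 2 alone, at percentiles of 26.1 and 19.6.

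Between BST1 and CD38 lay 3 regions present in all 4 libraries, and these did not move together. At -23.8 kb from the CD38 start site (chr4:15755856-15756382), the score percentile was 6.84 and 32.8 after ATRA and 50.0 and 69.5 in control cells, with every ATRA value below every control value and a mean difference of -40.0 points. At -21.8 kb (chr4:15757771-15758599), the percentiles were 86.3 and 87.9 after ATRA and 97.9 and 98.0 in control cells. The mean difference there was -10.9 points, and -11.6 without ATRA replicate 2. The peaks of this region were also narrower after ATRA, 523 and 689 bp against 786 and 756 bp, whereas 37.1% of all shared regions were wider in both ATRA libraries and 3.97% narrower. At -12.3 kb (chr4:15766938-15768403), the percentiles were 84.8 and 92.3 after ATRA and 52.5 and 84.0 in control cells, higher after ATRA by 20.3 points in the mean. This difference was 16.6 points without ATRA replicate 2, 4.55 without control replicate 1 and 36.1 without control replicate 2. Control replicate 1 had 2 peaks in the region, at percentiles of 24.6 and 52.5, where control replicate 2 had 1 peak of 1378 bp. Only the highest peak is ranked, so the value of control replicate 1 depends on how its peaks were split. Inside this last region, 302 bp (chr4:15766992-15767293) were covered by both control libraries and neither ATRA library, although its highest peak ranked lower in control cells. Beyond the end of CD38, at 90.0 kb (chr4:15869753-15870180), both control libraries had a peak, of 428 and 231 bp at percentiles of 68.5 and 20.4, and neither ATRA library did. It was the only region of either window with that pattern.

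Over the 10 shared regions of the CD38 and BST1 window, 6 had overlapping groups, 2 lay higher and 2 lower in both ATRA libraries, against 29.2% higher and 12.8% lower among all shared regions. The median difference was -1.18 percentile points, beside 2.83 over all shared regions, and single regions ran from -40.0 to 67.1. The sign of that median was not stable, at 7.87 without ATRA replicate 1 and 4.03 without control replicate 2. With the same number of peaks in every list, 7 regions stayed shared, of which 1 lay higher and 4 lower in both ATRA libraries, against 22.6% and 20.9% of all regions shared at that setting. By width in bp, 4 of the 10 were wider and 1 narrower in both ATRA libraries, against 37.1% and 3.97% of all shared regions. After widths were ranked within each list, 1 was wider (CD38 intron 1) and 1 narrower (at -21.8 kb), against 24.6% and 13.4% of all shared regions.

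**Figure D4:**
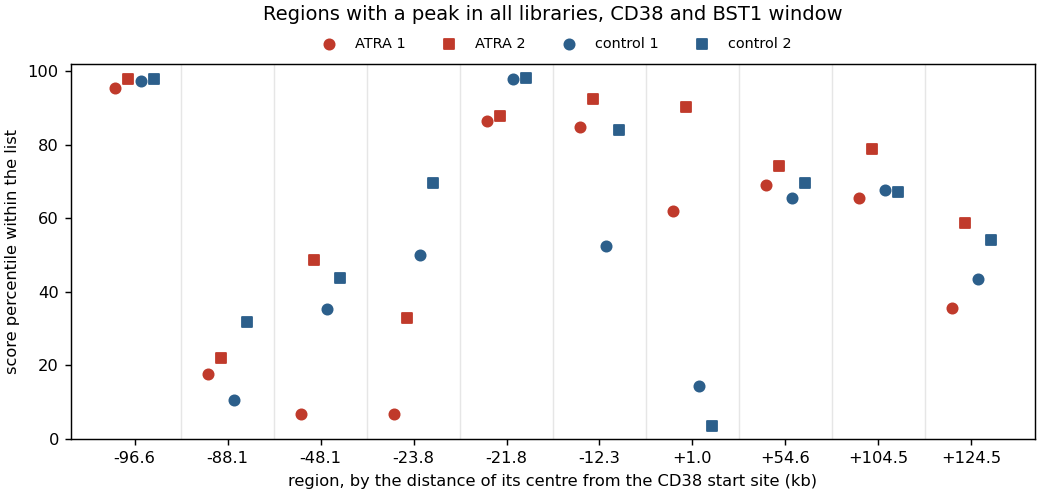
Score percentile of the highest peak of each library in the 10 regions of the CD38 and BST1 window that had a peak in all 4 libraries, ordered by distance from the CD38 start site in kb; red is ATRA, blue control, circles replicate 1 and squares replicate 2. The groups stood farthest apart in CD38 intron 1, at 61.9 and 90.3 against 14.3 and 3.55, and in the opposite order at -23.8 kb, at 6.84 and 32.8 against 50.0 and 69.5.

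The BST1 start site (chr4:15704536-15704826) had a peak of 291 bp at percentile 13 in ATRA replicate 1 and of 220 bp at percentile 45.6 in control replicate 2, and none in the other library of each group. The peaks of the start site thus did not separate the groups. Inside the gene, intron 8 held a region at 27.1 kb (chr4:15731607-15732039) in all 4 libraries, with percentiles of 6.73 and 48.6 after ATRA and 35.4 and 43.7 in control cells, which overlapped. With every list limited to 42081 peaks they no longer did, at 3.59 and 22.4 after ATRA against 35.4 and 38.6. The regions that BST1 had only after ATRA were 2 sites in the FBXL5 gene upstream of it. The one at -43.0 kb from the BST1 start site had peaks of 402 and 645 bp at percentiles of 61.6 and 52.7. The one at -37.0 kb had peaks of 390 and 664 bp at percentiles of 71.4 and 63.9. They lay 4700 and 10716 bp from the start site of FBXL5, a gene of iron-dependent protein degradation, so nearness does not assign them to BST1. The region at the FAM200B start site, which also holds the 5′ end of the FBXL5 gene (chr4:15682792-15683906), ranked at 95.4 to 97.8 in all 4 libraries, and the groups overlapped. The region at the start of the canonical FBXL5 transcript (chr4:15656205-15657489) ranked at 58.8 and 59.7 after ATRA and at 64.7 in control replicate 1, and the region in intron 1 beside it (chr4:15655508-15656143) at 13 and 3.35 against 6.55, with no peak of control replicate 2 in either. In exon 2 of FAM200B (chr4:15691136-15691535), the ATRA peaks ranked at 59.8 and 38.2 and that of control replicate 1 at 16.1, again with none in control replicate 2. A region next to it (chr4:15691595-15692076) and those at 104.5 and 124.5 kb from the CD38 start site were present in all 4 libraries with overlapping ranks.

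TGM2 had few called peaks in these lists. The region upstream of it (chr20:36797275-36797634), centred at -3.8 kb from the start site, had peaks of 243 and 360 bp after ATRA at score percentiles of 6.73 and 19.1, and none in control cells. Both peaks were thus among the lower scores of their lists. The nearest control peaks lay at -110634 and -122677 bp, upstream of the window. When the lists were limited to 42081 peaks, the peak of ATRA replicate 2 was lost, and in the upper scores of each list the window held no peak. The exact DR1 in this region (chr20:36797500-36797512, GGTTCAgAGGTCA) lay at -3834 bp and within both ATRA peaks. An exact DR1 was present in 0.236% of all regions, in full length, and in 0.373% of those of both ATRA and no control library. On chromosome 20 there were 302 exact DR1 matches, of which 7 lay in a region of any library. The second region, at -31.6 kb (chr20:36825039-36825407), was a peak of 369 bp at percentile 20.5 in ATRA replicate 2 alone.

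Beside the direct repeats above, which were searched over the full length of each region, motifs were searched on both strands in the central 300 bp. The half-site letters were AGGTCA or AGTTCA or GGGTCA or GGTTCA, and DR5, DR2 and DR1 are made of these, so they overlap with it. CEBP (TTGCNNAA) was found in 10 of the 25 regions (40.0%, against 17.2% of all regions), AP-1 (TGACTCA or TGAGTCA) in 5 (20.0% against 7.76%) and RUNX (AACCACA) in 5 (20.0% against 10.8%). The CEBP matches lay in regions of several kinds, among them the TGM2 upstream region. Searched over 200 bp, CEBP was found in 5 regions (20.0% against 12.3%), so its share depended on the length searched. The GATA motif, searched as AGATAA or TGATAA, was found in 7 regions (28.0% against 26.8% of all regions). It was in 51.5% of regions of both control and no ATRA library and 22.9% of the opposite kind. The 7 held the control site beyond CD38, but also the TGM2 upstream region and the FBXL5 site at -43.0 kb, both seen only after ATRA. The rest were CD38 intron 1 at 1.0 and 27.8 kb, the region at -23.8 kb and the TGM2 region of ATRA replicate 2 alone. PU.1 (GAGGAAGT), CTCF and IRF had 0 matches, against 10.3%, 6.21% and 5.09% of all regions, and ETS (CCGGAAGT), which shares its end with PU.1, had 1 (4.00% against 1.47%). A single half-site was in 12 regions (48.0% against 44.2%). Exact DR2 matches numbered 7 in the CD38 and BST1 window and 5 in the TGM2 window, and 0 of them lay in a region. The other exact DR1 of the CD38 and BST1 window, in CD38 intron 7, also lay outside every region.

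For other genes of the same pathways, a list of 20 retinoid-induced genes and a list of 20 genes of NAD metabolism and of the transglutaminase family, with TGM1 in both, were counted in the same way. Among all protein-coding genes, 40.9% had a region of both ATRA and no control library within 50 kb, and 16.5% one of both control and no ATRA library. Of the retinoid-induced genes, 12 (60.0%) had the first kind and 6 (30.0%) the second. Covered length was higher in both ATRA libraries for 12 of them (60.0%, against the 44.6% of all genes) and lower for 0 (against 1.14%). Both lists were chosen with earlier results of these data known, so the shares are descriptions only. DHRS3, a retinal reductase, had 1393 and 2949 bp after ATRA against 216 and 410 bp. CYP26A1, the enzyme that breaks down retinoic acid, had 1452 and 2153 bp against 1154 and 940 bp. Among the members without this pattern, CEBPE overlapped at 3845 and 8362 bp against 5461 and 5093 bp, and STRA6 had 0 bp in all 4 libraries. Of the NAD and transglutaminase genes, 6 (30.0%) had the first kind and 5 (25.0%) the second, with covered length higher in both ATRA libraries for 7 (35.0%, under the 44.6% of all genes) and lower for 0. TGM3, a transglutaminase of skin, had 1802 and 2966 bp against 235 and 1113 bp, and NT5E, the surface nucleotidase CD73, had 2511 and 3009 bp against 861 and 1404 bp. NAMPT, the enzyme of NAD salvage, overlapped between groups at 1207 and 1848 bp against 1382 and 1159 bp.

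Genes with the most similar covered length were found by the Euclidean distance over the 4 libraries in log2(bp + 100). For CD38 they were RNF216 (0.07), ZBED5 (0.10) and EGLN3 (0.12), for BST1 LYVE1, ZNF584 and HCN3 (0.09 each), and for TGM2 CYB5D2 (0.04), ARFGAP1 (0.06) and KCNS1 (0.12), each over 4 libraries. RNF216, for example, had 4151 and 7864 bp after ATRA against 3751 and 4352 bp, close to the values of CD38. This likeness is over 4 values only.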

How the data were processed

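The data were the ATAC-seq peaks of 4 libraries, 2 of ATRA-treated and 2 of control HL-60 cells, grouped by title. Per the labels and the study's methods, the authors trimmed reads with cutadapt, aligned them to hg19 (with Bowtie2 per the labels, Bowtie per the methods) and called peaks for each library, without pooling, with MACS2 per the methods (the labels also name MACS). Any shift of reads toward the Tn5 cuts, removal of duplicates and a blacklist are not given in the sources used here, so peak edges may lie some bases off. The deposited lists hold 5 columns, and the deposited score, from 50.00 to 3100 with its scale not stated, was used only as a rank. No read counts were given, so a library with more reads may yield more and wider peaks.

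Genes were those of GENCODE 44 on GRCh37, and coordinates are 1-based. In the 4 lists, 0 peaks lay past a chromosome end. Peaks overlapping by 1 bp were merged across lists, and a library's percentile in a region is that of its highest-scoring peak. Positions of regions are distances of their centres from the start site of the canonical transcript. Groups were compared by a two-sided exact permutation test over libraries. Regions were named if present in both libraries of a group or over a start site, and the others were counted. A few further ones are described, chosen after their values were seen. Some markers, genes and sequences of these lists are not reported here. The members, gene lists and motifs were chosen with earlier results of these data known. Alternatives were the same number of peaks per list, the upper scores, peaks set to 200 bp, margins of 10 and 100 kb, a 100 bp overlap, the study's definition of specific peaks and leaving out each library. Direct repeats with 1 mismatch were added after seeing the data. Functions were tested on simulated peaks. Python 3.11.15, numpy 2.4.6, pandas 2.3.3, scipy 1.17.1, pysam 0.24.0 and matplotlib 3.10.9 were used.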

Additional observations from a re-analysis of the deposited data

How the results depend on the processing

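In the CD38 and BST1 window, the difference in peaks and covered length stayed above 0 under every alternative run. The TGM2 window rested on low scores: with only the upper scores its difference was 0 peaks and 0 bp and it had 0 regions of both ATRA and no control library, also 0 with the same number of peaks in every list. A 10 kb margin left 1 region of both ATRA and no control library about CD38 and BST1 and 0 of the opposite pattern. Under the study's definition of specific peaks, in which a peak of 1 control library does not count, 7 regions there were specific to ATRA. The same window held 10 regions with a peak in all 4 libraries. Over the genome, 37.3% of ATRA and 23.7% of control regions were then specific, so the 7 alone do not show a gain particular to this window. Here the peaks of a group were merged before counting, so these shares need not equal the study's own. With the same number of peaks in every list, 7.15% of all regions were in both ATRA and no control library. The opposite pattern then held for 6.04%. In the full lists these shares were 8.94% and 3.37%.

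Leaving out each library in turn gave 3 to 7 regions of ATRA and no control library (7 without ATRA replicate 1, 6 without control replicate 1) and 1 to 2 of the opposite pattern (2 without control replicate 2) about CD38 and BST1, 1 to 2 of the former about TGM2 (2 without ATRA replicate 1), and over the genome 13.7% to 29.2% and 4.15% to 10.9%. It moved the covered length difference from 2317 bp (without ATRA replicate 2) to 7101 bp (without ATRA replicate 1) about CD38 and BST1 and from 243.0 to 729.0 bp about TGM2. Small percentile differences changed sign when a library was left out: -2.16 to 0.301 at the FAM200B promoter, -12.0 to 9.15 in its exon 2, -32.8 to 9.06 in BST1 intron 8, and -1.96 to 11.3 and -13.3 to 9.87 at 104.5 and 124.5 kb from CD38. With the same number of peaks in every list it was -1.58 in CD38 intron 3 and -24.0, from -11.9, in BST1 intron 8. The difference in CD38 intron 1 ran from 52.9 to 81.4. The median over shared regions ran from -4.07 to 7.87 and turned positive without ATRA replicate 1 (7.87), without control replicate 2 (4.03), with the upper scores (8.31) and by width percentile (1.17). The causes were not tested.

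The labels number the libraries 1 and 2 in both groups but name no shared batch. Pairing libraries of the same number leaves the window differences of 6 and 1.5 peaks and 4709 and 486.0 bp unchanged by construction. Such a replicate block is therefore no check of their size. Its exact sign-flip p was 0.5 for the window values, the smallest that 2 pairs allow. Deviations of covered length correlated at r = 0.19 over 19434 genes between same-numbered libraries, which are too few pairs to settle a pairing. Depth was unknown, so a missing peak is not shown to be closed chromatin.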
